A study of Mus musculus with 14 samples.

Results

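The genes described here are 8 genes of the podocyte slit diaphragm and the glomerulus: Nphs1, Podxl, Synpo, Wt1, Plce1, Magi2, Ptpro and Vegfa. They were taken by gene symbol, each matched 1 row among the 21878 genes listed for every mouse, and all 8 passed the filter on low values. Their RNA was measured in kidneys of 14 male C57BL/6J mice in 4 groups: diabetic mice lacking Cfb (Cfb-/-, n = 4), diabetic wild-type mice (WT, n = 4), and nondiabetic controls of the same genotypes (n = 3 each). The diabetic mice were fed a diet with 60% of its calories from fat and injected with streptozotocin (STZ), a toxin of pancreatic beta cells, at 60 mg/kg on 5 consecutive days. The controls were fed chow with 10% of calories from fat and injected with citrate buffer. All mice carry the time label 34 weeks. Cfb encodes complement factor B, a protease of the alternative complement pathway, and the deletion is global and not restricted to a cell type, although 1 label calls it a knockdown. The high-fat diet was fed for 4 weeks before STZ, and no group received 1 of the 2 alone, so their parts in a difference between diabetic and control mice cannot be told apart, and the study asked how loss of factor B alters the diabetic kidney.

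Podocytes are the epithelial cells that wrap the glomerular capillaries, and their interlocking foot processes are bridged by the slit diaphragm, the last barrier that keeps protein out of urine. Nephrin (Nphs1) spans the slit and is anchored from inside the cell by scaffold proteins and the actin skeleton, while a negatively charged coat on the apical surface holds neighboring foot processes apart. Podocytes also secrete VEGF-A, on which the fenestrated glomerular endothelium depends. Loss of nephrin and other slit diaphragm proteins is a known feature of diabetic kidney disease. In RNA from kidney tissue, fewer cells of a type and less RNA per cell cannot be told apart.

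Levels are given as deposited, in FPKM, fragments scaled to transcript length and library size, so that genes can be compared with each other. Cfb, the check of the genotype labels, was 1.34 ± 0.144 FPKM (SD, n = 4) in Cfb-/- diabetic and 2.16 ± 0.0913 (n = 3) in Cfb-/- control mice, against 72.5 ± 11.2 (n = 4) in WT diabetic and 106 ± 38.2 (n = 3) in WT control mice. No 2 mice held identical values, and the logged FPKM of mice of 1 group correlated across genes at r = 0.981 to 0.990. The most abundant transcript, the androgen-regulated proximal tubule gene Kap, took 10.2% to 13.9% of the summed FPKM in control mice and 1.98% to 4.6% in diabetic mice, and the sum itself ran from 330246 to 488196. The highest sum and the highest Kap share both belonged to WT control mouse 2. Proximal tubule markers (9 genes) summed to at least 1161 FPKM in every mouse, as the kidney label implies.

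Nphs1 (chr7:30458207-30488623 in GRCm38.p6) measured 7.44, 7.89, 5.36 and 4.92 FPKM in the 4 Cfb-/- diabetic mice and 7.48, 3.81, 3.72 and 7.18 in the 4 WT diabetic mice. It measured 2.72, 3.71 and 3.08 FPKM in the Cfb-/- controls and 4.09, 2.38 and 4.94 in the WT controls. Every Cfb-/- diabetic mouse was above every Cfb-/- control, whereas the 2 low WT diabetic mice (mice 2 and 3) fell inside the range of the WT controls. The scaffold gene Magi2 (chr5:19219387-20704792), whose protein binds the tail of nephrin, was among the lowest members, at 1.36, 1.16, 0.972 and 1.06 FPKM in Cfb-/- diabetic mice, 1.15, 0.727, 0.781 and 1.22 in WT diabetic mice, 0.767, 0.811 and 0.811 in Cfb-/- controls and 0.890, 0.583 and 1.08 in WT controls. Its 3 Cfb-/- controls lay closer together than any other group of any member, with a coefficient of variation of 3.18%.

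Podxl (chr6:31519493-31563937) encodes podocalyxin, the charged sialomucin of the apical foot process surface, which glomerular endothelium also makes. It had the highest mean of the 8 members in diabetic mice, at 70.1, 73.8, 55.9 and 50.8 FPKM in Cfb-/- and 66.0, 46.4, 44.5 and 72.04 in WT mice. In controls it measured 31.5, 37.6 and 33.5 FPKM in Cfb-/- and 41.6, 22.7 and 48.7 in WT mice. Ptpro (chr6:137252299-137464634), the apical receptor tyrosine phosphatase GLEPP1, measured 4.74, 4.31, 2.80 and 2.85 FPKM in Cfb-/- diabetic, 4.63, 2.59, 2.83 and 5.19 in WT diabetic, 1.28, 1.68 and 1.56 in Cfb-/- control and 1.98, 1.09 and 1.9996 in WT control mice. Its lowest diabetic mouse, at 2.59, was above its highest control of either genotype, at 1.9996.

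Synpo (chr18:60593981-60660173), the actin-binding foot process protein synaptopodin, measured 16.6, 15.6, 8.26 and 9.22 FPKM in Cfb-/- diabetic mice, 13.9, 8.56, 8.24 and 13.0 in WT diabetic mice, 4.99, 7.04 and 4.36 in Cfb-/- controls and 6.14, 3.80 and 8.41 in WT controls. The highest WT control, at 8.41, was above the lowest WT diabetic mouse, at 8.24. Plce1 (chr19:38481034-38785105), phospholipase C epsilon, which is mutated in an inherited nephrotic syndrome, measured 1.498, 1.18, 0.942 and 0.975 FPKM in Cfb-/- diabetic mice, 1.14, 1.10, 0.983 and 1.36 in WT diabetic mice, 0.545, 0.466 and 0.512 in Cfb-/- controls and 0.610, 0.310 and 0.483 in WT controls. For Plce1 all 8 diabetic mice were above all 6 controls.

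Wt1 (chr2:105126529-105173614), the zinc-finger transcription factor that maintains the podocyte program, measured 7.58, 6.94, 4.35 and 4.27 FPKM in diabetic Cfb-/- mice and 6.60, 2.88, 3.47 and 7.40 in diabetic WT mice. In controls it measured 2.59, 2.71 and 2.06 FPKM in Cfb-/- and 3.55, 2.02 and 4.796 in WT mice. Wt1 in the WT diabetic mice had the widest spread of any member in any group, with a coefficient of variation of 44.2%. Vegfa (chr17:46016993-46032377), the secreted ligand, is also made by tubular epithelium. It measured 45.1, 49.7, 39.9 and 29.2 FPKM in Cfb-/- diabetic mice, 40.1, 22.5, 36.6 and 42.9 in WT diabetic mice, 44.8, 60.8 and 38.4 in Cfb-/- controls and 39.98, 25.1 and 59.4 in WT controls, with diabetic and control mice overlapping in both genotypes.

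**Figure D1:**
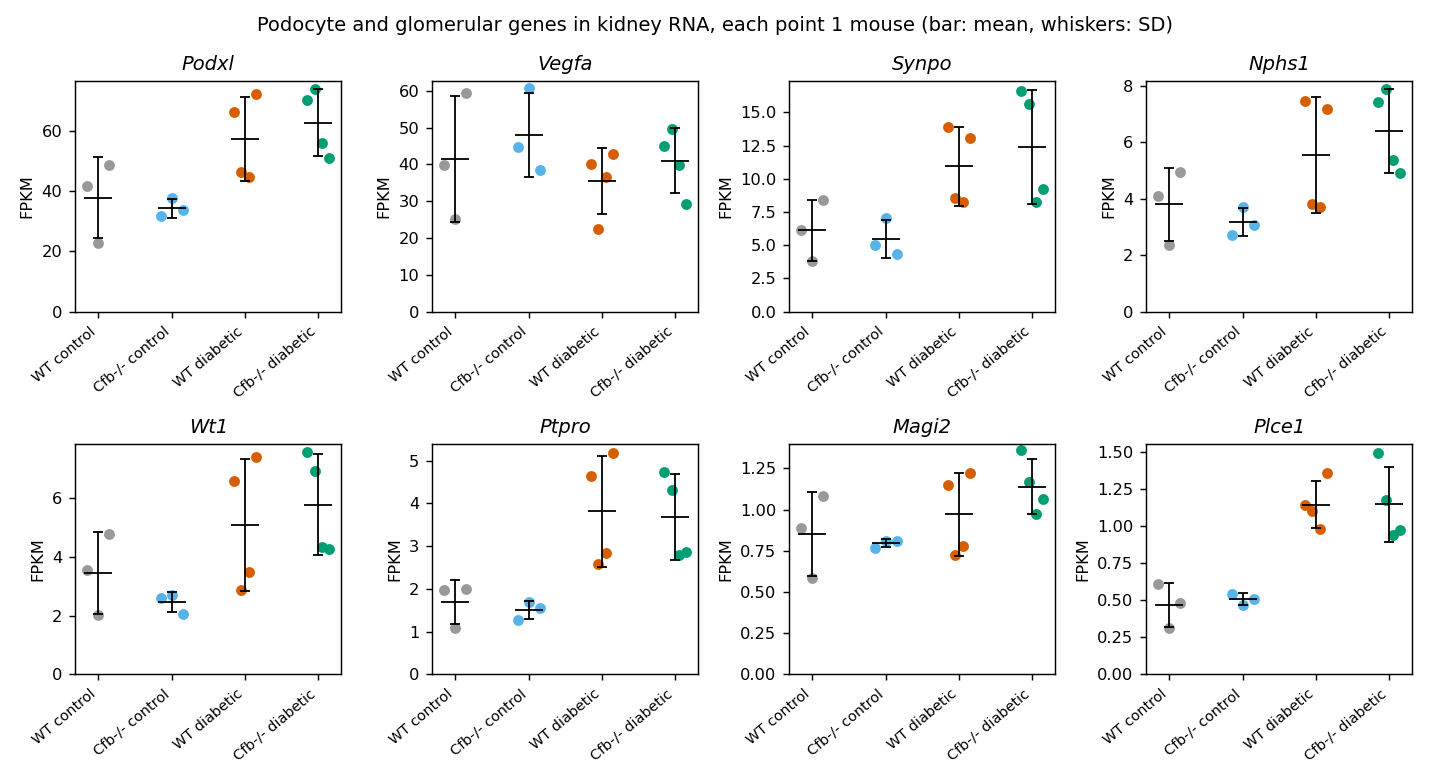
FPKM of the 8 genes (vertical axes, linear from 0) in the 4 groups; each point is 1 mouse, the bar the group mean and the whiskers the SD (n = 3 for controls, n = 4 for diabetic mice). Plce1 and Ptpro show no overlap between diabetic and control mice, Vegfa overlaps throughout, and the diabetic groups of most other genes divide into 2 high and 2 low mice.

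The order of the group means was shared by 5 of the 8 genes. Nphs1, Podxl, Synpo, Wt1 and Magi2 ran Cfb-/- diabetic, WT diabetic, WT control, Cfb-/- control from high to low, and no neighboring groups in that order were without overlap. Plce1 had the controls in the opposite order, with WT diabetic mice clear of Cfb-/- controls. Ptpro had the diabetic groups in the opposite order, with Cfb-/- diabetic mice clear of WT controls. Vegfa had both control groups above both diabetic groups, and all its neighboring groups overlapped.

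Diabetes was compared with control within each genotype by limma on log2(FPKM + 0.1), fitted over 14912 genes with Benjamini-Hochberg adjustment, with a call at an adjusted p under 0.05. Fold changes are on that log2 scale with their standard error (SE), so that those of low genes are understated. In WT mice 4 of the 8 genes rose and none fell, where 36.2% of all tested genes rose and 9.97% fell. Plce1 rose by 1.16 (SE 0.21, adjusted p = 0.000628), from a mean of 0.468 to 1.15 FPKM, and Ptpro by 1.12 (SE 0.28, adjusted p = 0.00557), from 1.69 to 3.81 FPKM. Synpo rose by 0.86 (SE 0.30, adjusted p = 0.0327) and Podxl by 0.64 (SE 0.24, adjusted p = 0.039). Nphs1 at 0.52 (adjusted p = 0.154), Wt1 at 0.52 (adjusted p = 0.226), Magi2 at 0.17 (adjusted p = 0.530) and Vegfa at -0.18 (adjusted p = 0.624) did not pass.

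These calls followed individual mice and the scaling. Without WT control mouse 2, without WT diabetic mouse 1 or without WT diabetic mouse 4, 2 genes passed, Plce1 and Ptpro in each case, and scaling the mice by median ratios left the same 2 genes. Synpo then had 0.58 (adjusted p = 0.101) and Podxl 0.36 (adjusted p = 0.165) on the median-ratio scale. After quantile normalization Ptpro did not pass, at 0.61 (adjusted p = 0.065), while Podxl and Plce1 passed as higher. Of all genes called in WT mice, 78.4% were higher on the deposited scale, 50.2% after median-ratio scaling and 44.2% after quantile normalization. Magi2 moved to -0.08 after median-ratio scaling and to -0.54 after quantile normalization, where it passed as lower (adjusted p = 0.020), so no direction is given for it in WT mice.

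In Cfb-/- mice 6 of the 8 genes rose with diabetes and none fell, where 27.4% of all tested genes rose and 6.40% fell. Ptpro rose by 1.20 (SE 0.28, adjusted p = 0.0043), from 1.51 to 3.68 FPKM. Wt1 rose by 1.17 (SE 0.34, adjusted p = 0.0168), from 2.45 to 5.79 FPKM, and Synpo by 1.13 (SE 0.30, adjusted p = 0.0102), from 5.46 to 12.4 FPKM. Plce1 rose by 1.02 (SE 0.21, adjusted p = 0.00194), Nphs1 by 0.98 (SE 0.29, adjusted p = 0.018) and Podxl by 0.86 (SE 0.24, adjusted p = 0.012). Magi2, at 0.46 (adjusted p = 0.124), and Vegfa, at -0.23 (adjusted p = 0.563), did not pass. Nphs1 lost its call without Cfb-/- diabetic mouse 1 (adjusted p = 0.053) or 2 (0.054), or without Cfb-/- control mouse 1 (0.070). Wt1 lost its call without Cfb-/- diabetic mouse 1 (adjusted p = 0.054) or Cfb-/- control mouse 3 (0.061). Ptpro, Synpo, Plce1 and Podxl passed with each mouse left out. After median-ratio scaling the same 6 genes passed, with 0.61 to 0.97, whereas quantile normalization left Podxl, Synpo and Ptpro and turned Magi2 to -0.18. Of all genes called in Cfb-/- mice, 81.0% were higher as deposited, 56.7% after median-ratio scaling and 49.1% after quantile normalization.

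The median log2 fold change of the 8 genes with diabetes was 0.58 for WT and 0.997 for Cfb-/- mice, beside 0.29 and 0.22 for all tested genes. The WT median rests in part on 1 mouse: without WT control mouse 2 it was 0.27, beside 0.20 for all genes, and after median-ratio scaling it was 0.30, beside 0.03. With array weights, whose estimation did not converge, it was 0.14, below the 0.22 of all genes. Relative to those medians Vegfa was at -0.47 in WT and -0.45 in Cfb-/- mice, and Ptpro at 0.83 and 0.98. By the criteria of the study, an unadjusted p under 0.05 and a change of more than 2-fold, Plce1 and Ptpro were higher in WT mice, where 15.6% of all genes were. Ptpro, Wt1, Synpo and Plce1 met them in Cfb-/- mice, where 13.3% did. These counts of 2 and 4 became 0 and 0 after median-ratio scaling and after quantile normalization, and 0 and 1 with a pseudocount of 1. Without WT control mouse 2 no member met them in WT mice, without WT diabetic mouse 4 1 did, and without Cfb-/- diabetic mouse 1 2 members met them in Cfb-/- mice.

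**Figure D2:**
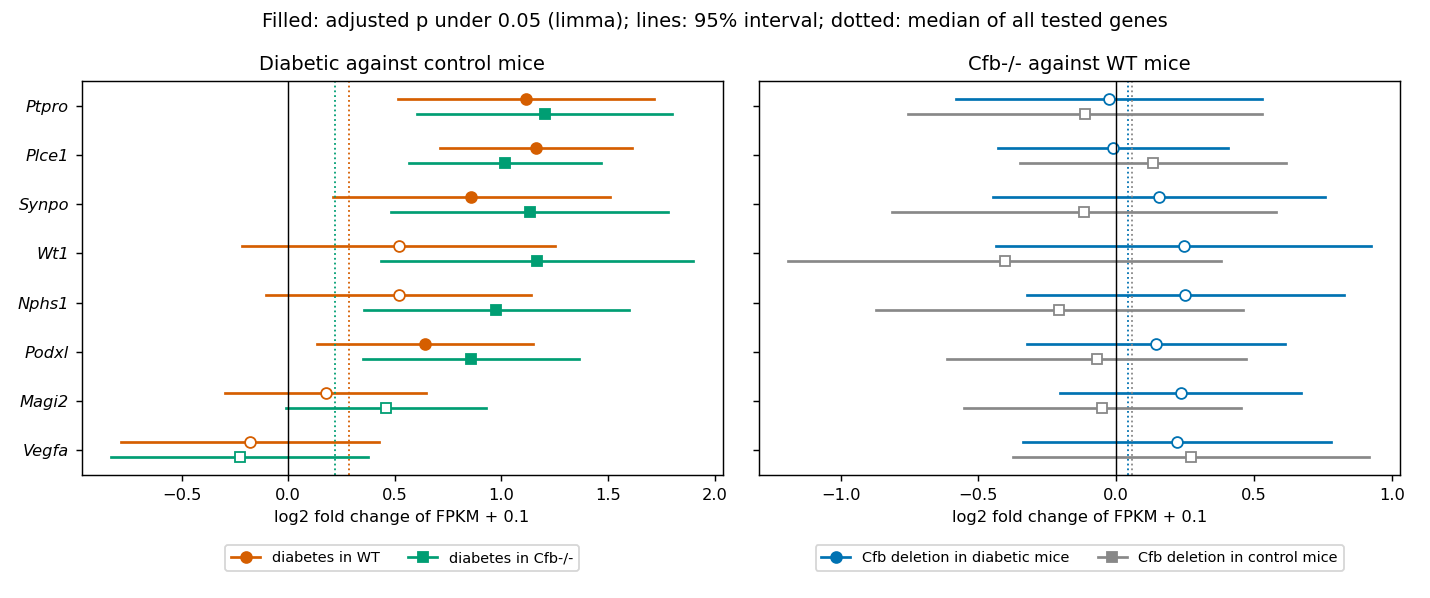
Log2 fold changes of the 8 genes (horizontal axes) with their 95% limma intervals; the left panel compares diabetic with control mice within each genotype and the right panel compares Cfb-/- with WT mice. Filled symbols have an adjusted p under 0.05, dotted lines mark the median of all tested genes; the left panel has 4 filled WT and 6 filled Cfb-/- symbols and the right panel has none.

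The exact 2-sided permutation test on each gene, which with 4 against 3 mice cannot go below p = 0.0286, reached that value in WT mice for Plce1 and Ptpro. The exact test gave p = 0.0571 for Synpo, 0.143 for Podxl, 0.286 for Nphs1 and 0.343 for Wt1. In Cfb-/- mice it reached 0.0286 for Nphs1, Podxl, Wt1, Plce1 and Ptpro, and gave 0.0571 for Synpo and Magi2. Without overlap between diabetic and control mice were 2 of the 8 genes in WT mice, where 35.5% of all genes were higher without overlap, and 7 of the 8, all but Vegfa, in Cfb-/- mice, where 33.6% were.

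Deletion of Cfb was compared within diabetic and within control mice. None of the 8 genes passed in either comparison, at an adjusted or an unadjusted p under 0.05, and the groups overlapped for all 8. Over all genes, 1.86% were higher and 0.885% lower without overlap in Cfb-/- diabetic mice, and 6.67% and 7.12% in Cfb-/- control mice. Over all genes, limma called Cfb and no other gene in each (0.00671% of all tested), and 448 genes (3.0%) in diabetic and 2614 (17.5%) in control mice had an unadjusted p under 0.05. The count over all genes in control mice turned on 1 library, with 1724 genes called without WT control mouse 1, 0 members among them. It was also 10 and 11 without Cfb-/- control mice 1 and 2, and in diabetic mice 6 without WT diabetic mouse 1. In diabetic mice the 8 differences ran from -0.03 for Ptpro (95% interval -0.58 to 0.53) to 0.25 for Nphs1 (-0.32 to 0.83), Cfb-/- minus WT. In control mice they ran from -0.40 for Wt1 (-1.19 to 0.38) to 0.27 for Vegfa (-0.38 to 0.92). Mean Nphs1 was 6.40 ± 1.48 FPKM in Cfb-/- diabetic and 5.55 ± 2.06 in WT diabetic mice (SD, n = 4 each), a ratio of 1.15. The interval reached past a 1.5-fold difference for 6 of the 8 genes in diabetic and 7 of the 8 in control mice, so that similar levels are not shown.

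The 4 genes called with diabetes in WT and the 6 called in Cfb-/- mice were not shown to respond differently. The test of the difference itself, the genotype by diabetes interaction, called none of the 8 and none of all 14912 genes (0%), of which 861 (5.77%) had an unadjusted p under 0.05. Wt1 had the largest interaction of the 8, at 0.65 (SE 0.49, adjusted p = 0.779; 95% interval -0.39 to 1.69), and Plce1 the lowest, at -0.14 (SE 0.30, adjusted p = 0.896). All 1400 ways of assigning genotype, among the diabetic mice and among the controls separately, gave an exact 2-sided permutation p of 0.243 for Wt1 and 0.301 for Nphs1, and up to 0.933 for Vegfa.

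Mice of 1 group differed from each other in nearly the same way for every member. In the Cfb-/- diabetic group mice 1 and 2 were the 2 highest for all 8 genes, and in the WT diabetic group mice 1 and 4 were. WT control mouse 2 was the lowest of its group for all 8, on average 0.57 below its group mean on the log2 scale. The Cfb-/- controls showed no such ranking, and the mean of the 8 genes there stayed between 0.10 below and 0.17 above the group mean. In the WT diabetic group it ran from -0.40 to 0.39.

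**Figure D3:**
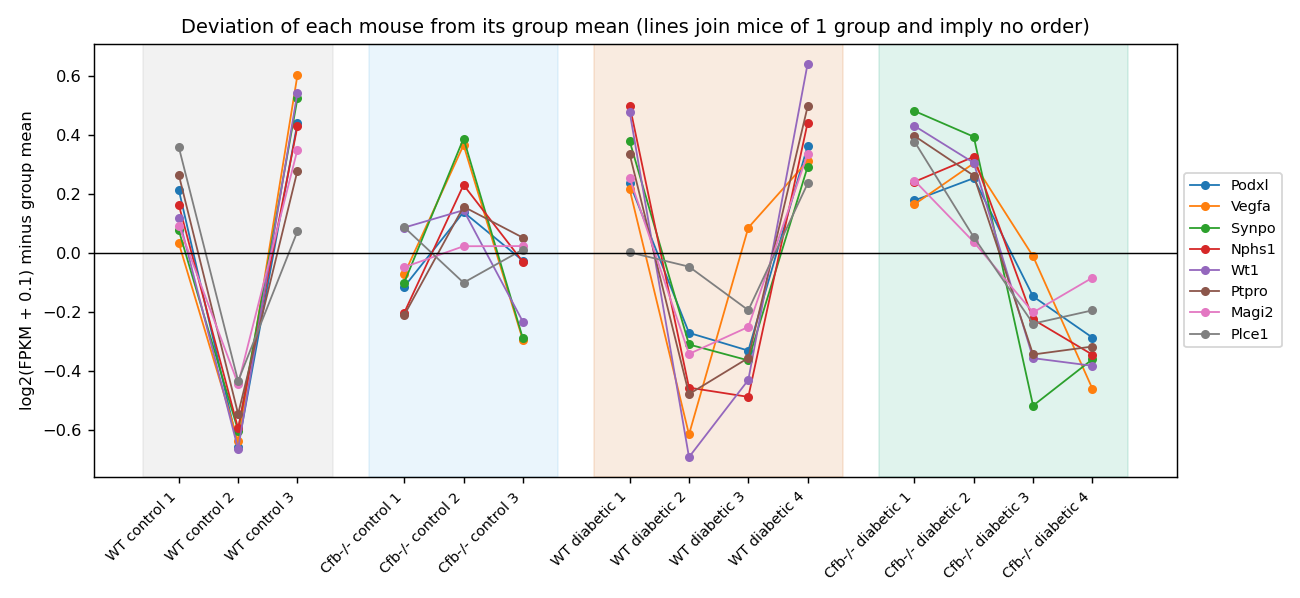
Log2(FPKM + 0.1) minus the group mean (vertical axis) for each of the 14 mice (horizontal axis); each color is 1 of the 8 genes and lines join mice of 1 group without implying an order. The 8 genes sit together above or below 0 in most mice, lowest in WT control mouse 2.

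Over the 14 mice, after subtracting group means, the 28 pairs of members had r of 0.484 to 0.963 with a median of 0.880. This is a description, since genes of 1 mouse share its tissue piece, library and depth. Wt1 followed the mean of the other 7 genes at r = 0.968 (rho = 0.974; 0.963 without the 2 mice farthest from the median), Podxl at 0.965, Nphs1 at 0.964 and Ptpro at 0.960. Vegfa followed it at 0.828 (0.714 without the 2 farthest mice) and Plce1 at 0.722 (0.646). Among the 15 pairs that hold neither Vegfa nor Plce1, r was 0.862 to 0.963.

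Other cell types moved with this within-group pattern to different degrees. The mean of 13 other podocyte-enriched genes followed the mean of the 8 members at r = 0.954, that of 12 glomerular endothelial genes at 0.812 and that of 7 mesangial genes at 0.822. The remaining podocyte lists followed the member mean less closely than the first. The cytoskeleton and apical linker list had r = 0.838, podocyte transcription factors 0.808 and slit diaphragm partners 0.771, so podocyte lists did not stand apart as a set. Distal convoluted tubule markers (4 genes), which are cortical but not glomerular, followed the member mean at 0.823, proximal tubule markers (9 genes) at -0.493, thick ascending limb markers (5 genes) at -0.481 and macrophage markers (6 genes) at 0.209. None of these markers was at 0 in all mice. The part of these cell types in the differences between diabetic and control mice was not tested.

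Since the members rose and fell together, each was also set against Nphs1 in the same mouse, a ratio that scaling of the library cannot change. Vegfa per Nphs1 was 6.44 (range 5.94 to 7.45) in diabetic and 15.1 (12.5 to 16.5) in control Cfb-/- mice, and 6.77 (5.36 to 9.84) in diabetic and 10.8 (9.78 to 12.0) in control WT mice. Magi2 per Nphs1 was 0.182 (0.148 to 0.216) and 0.255 (0.219 to 0.282) in Cfb-/- diabetic and control mice, and 0.181 (0.154 to 0.210) and 0.227 (0.218 to 0.245) in WT diabetic and control mice. Ptpro per Nphs1 went the other way, at 0.572 (0.523 to 0.638) and 0.477 (0.454 to 0.506) in Cfb-/- and 0.696 (0.619 to 0.760) and 0.449 (0.405 to 0.484) in WT mice.

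The ratios of Magi2 and of Ptpro to Nphs1 did not overlap between diabetic and control mice in either genotype. That of Vegfa did not overlap in Cfb-/- mice, and those of Plce1 and of Synpo did not overlap in WT mice. Synpo per Nphs1 was higher in the WT diabetic mice and overlapped in Cfb-/- mice. The ratios of Podxl and of Wt1 to Nphs1 overlapped in both genotypes. Over all tested genes the ratio to Nphs1 was lower in diabetic mice without overlap for 8.03% in WT and 50.6% in Cfb-/- mice, and higher without overlap for 9.80% and 6.65%. The 2 lowest members also parted: Plce1 was 0.999 times the Magi2 level in Cfb-/- diabetic and 1.22 times in WT diabetic mice, against 0.639 and 0.555 times in the Cfb-/- and WT controls. The ratios are given as a description, without a test.

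**Figure D4:**
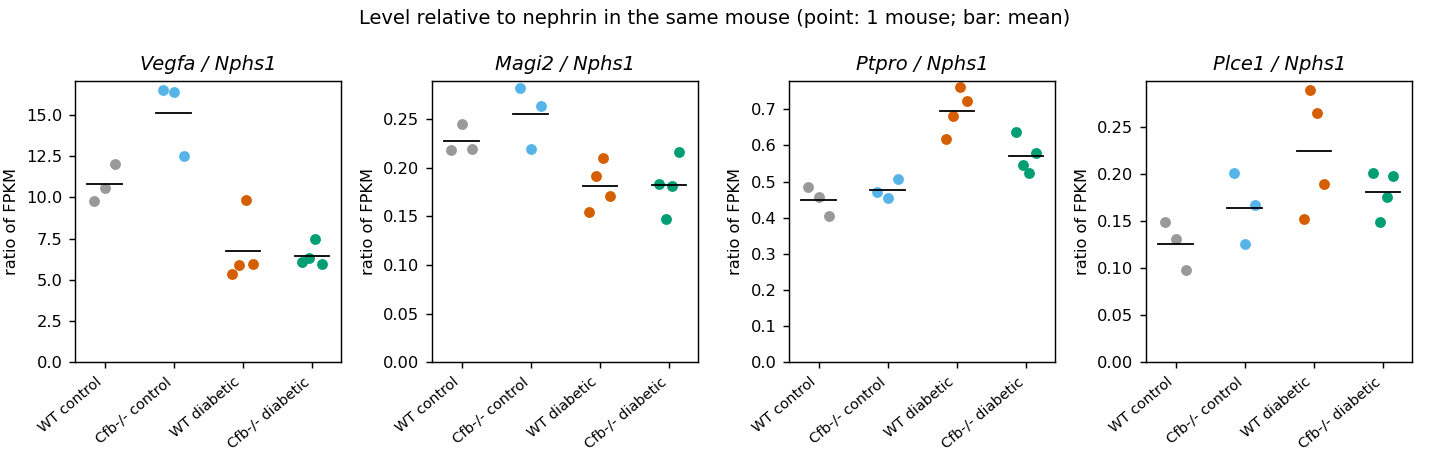
FPKM of Vegfa, Magi2, Ptpro and Plce1 divided by that of Nphs1 in the same mouse (vertical axes, from 0) in the 4 groups; points are mice and bars are group means. Vegfa and Magi2 per Nphs1 are lower in diabetic mice and Ptpro per Nphs1 is higher, with overlap for Vegfa in WT mice and for Plce1 in Cfb-/- mice.

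The promoters of Ptpro, which rose in both genotypes on the deposited scale, and of Vegfa, which passed in neither, are shown to set a gene that rose beside one that did not. The sequences are the 250 bases before a start site listed in RefSeq on GRCm38.p6, and GENCODE M21 places no exon in either window. For Vegfa this is 1 of 2 listed start sites. Capitals mark GTGGGNG, a core shared by WT1 and EGR sites, in Ptpro (chr6:137252049-137252298, plus strand) and GGGCGG, a GC box, in Vegfa (chr17:46032378-46032627, minus strand).
Ptpro: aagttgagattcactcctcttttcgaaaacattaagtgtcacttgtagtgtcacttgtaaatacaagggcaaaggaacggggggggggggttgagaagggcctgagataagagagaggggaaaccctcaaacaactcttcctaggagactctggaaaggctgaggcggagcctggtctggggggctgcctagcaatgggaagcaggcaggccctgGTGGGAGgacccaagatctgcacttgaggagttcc
Vegfa: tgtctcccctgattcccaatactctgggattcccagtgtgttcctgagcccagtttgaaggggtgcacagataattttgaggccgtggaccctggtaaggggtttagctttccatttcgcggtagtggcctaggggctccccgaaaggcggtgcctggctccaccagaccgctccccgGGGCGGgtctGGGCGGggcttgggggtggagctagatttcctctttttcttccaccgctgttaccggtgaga
GTGGGNG lies 35 to 29 bases before the Ptpro start and is absent from the Vegfa window shown. The 2 GC boxes lie 72 to 67 and 62 to 57 bases before that Vegfa start. Searched on both strands, GTGGGNG is in 28.1% and GGGCGG in 32.7% of 32817 promoter windows of that length, and the 2 motifs do not overlap here. Both windows shown also hold TAAT, the homeodomain core, as 54.9% of windows do. The window of the other Vegfa start site overlaps a coding exon of Vegfa. It has no GTGGGNG, a GC box 158 to 153 bases before that start, and ACGTG, the hypoxia core, which is in 16.6% of windows. GTGGGNG was neither in the windows of all genes that rose nor only in those. Plce1, which rose in both genotypes on the deposited scale, has no GTGGGNG in its window. Nphs1, which passed in Cfb-/- but not in WT mice, has one 225 to 219 bases before its start. Magi2, which passed in neither, has one that begins 119 bases before 1 of its 2 listed start sites. These windows of Plce1, Nphs1 and Magi2, unlike those shown, overlap exons of their own gene in GENCODE M21, so they are not purely upstream sequence. A match is letters only and not a bound site, and no match says no more than that these letters are not in the window. RefSeq windows were matched for 5 of the 8 members.

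Podocyte and glomerular genes outside the 8 were read from lists by function, against the 36.2% of all tested genes that rose in WT and the 27.4% that rose in Cfb-/- mice. Of 13 tested slit diaphragm partners 8 rose in WT and 9 in Cfb-/- mice, with none lower. Kirrel, the gene of Neph1 that binds nephrin across the slit, rose by 1.44 (SE 0.25, adjusted p = 0.000446) in WT and by 1.90 (adjusted p = 6.47e-05) in Cfb-/- mice. Fat1, a giant cadherin, rose by 1.37 and 0.89, and Iqgap1, a nephrin-binding scaffold that most cells express, by 1.31 and 1.08. Kirrel2 (Neph3) stayed below the filter in all mice, at up to 0.0949 FPKM.

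Among 14 genes of the podocyte cytoskeleton and apical linkers, 7 rose and 1 fell in WT mice, and 10 rose and 1 fell in Cfb-/- mice. Anln, an actin-binding protein of dividing cells that is also mutated in inherited podocyte disease, rose by 1.93 and 1.53, the intermediate filament gene Nes by 1.14 and 1.55, and the nonmuscle myosin Myh9 by 1.13 and 1.11 in WT and Cfb-/- mice. Of 7 podocyte transcription factors 3 rose in WT and 4 in Cfb-/- mice: Foxc1 (1.41 and 0.91) and Tcf21 (0.80 and 1.28) were among those that rose in both. Of 13 other podocyte-enriched genes 3 rose and 1 fell in WT mice and 7 rose and 1 fell in Cfb-/- mice, Nebl by 0.92 and 1.02 and Thsd7a by 0.76 and 0.84, while the secreted protease Htra1 fell by 0.78 and 0.55. The share of this last list that rose in WT mice, 23.1%, was below the 36.2% of all genes, and that in Cfb-/- mice, 53.8%, was above the 27.4%.

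**Figure D5:**
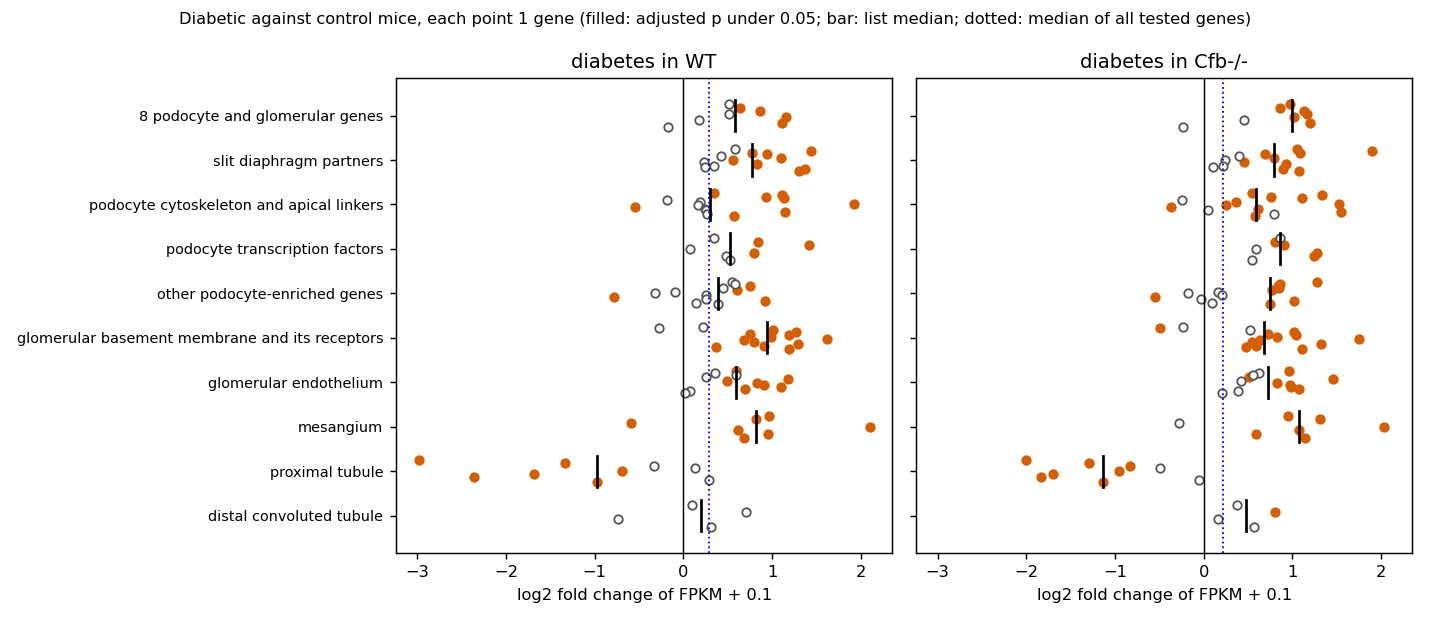
Log2 fold changes of diabetic against control mice (horizontal axes) in WT (left) and Cfb-/- mice (right) for the 8 genes and 9 lists by function; each point is 1 gene, filled at an adjusted p under 0.05, bars are list medians and the dotted line is the median of all tested genes. Podocyte, basement membrane, endothelial and mesangial lists have medians above 0 and the proximal tubule list has its median below 0 in both genotypes.

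The glomerular basement membrane list, the matrix on which podocytes sit with its receptors, had 12 of 14 genes higher in WT mice (85.7%, beside 36.2% of all genes), and 11 higher and 1 lower in Cfb-/- mice (78.6% higher, beside 27.4%). Nid1 rose by 1.62 and 1.75, Itga3, the podocyte laminin receptor subunit, by 1.29 and 1.32, and Lama5 by 1.27 and 1.02. Tubules and other cells express these genes too. In the glomerular endothelial list 7 of 12 genes (58.3%) rose in each genotype, with Plat at 1.18 and 1.46, Cdh5 at 1.10 and 0.98 and Pecam1 at 0.90 and 0.98, the last 2 shared by all endothelium. In the mesangial list 6 of 7 rose in each and 1 fell in WT mice, led by Serpine2 at 2.10 and 2.03. All 5 parietal epithelial genes rose in WT and 4 in Cfb-/- mice, including Cd44 (2.18 and 2.41) and Akap12 (2.25 and 2.49), which injured tubules, leukocytes and fibroblasts also express.

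Vegfa was also read beside its family. Of 12 tested VEGF ligands, receptors and hypoxia factors 6 (50.0%, beside 36.2% of all genes) rose in WT and 5 (41.7%, beside 27.4%) in Cfb-/- mice, and none fell. The lymphatic growth factor Vegfd rose by 1.24 and 1.16, while Pgf rose by 1.30 in WT mice and had 0.40 (adjusted p = 0.287) in Cfb-/- mice, and Hif1a rose by 1.26 in WT and had 0.57 (adjusted p = 0.063) in Cfb-/- mice. The difference between genotypes was not called for any of these.

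Markers of tubular, interstitial and other cells were read against all tested genes, of which 36.2% rose and 9.97% fell in WT mice. In Cfb-/- mice 27.4% of all tested genes rose and 6.40% fell. Of 9 proximal tubule genes 6 fell in WT and 7 in Cfb-/- mice, with their sum at 1161 to 1991 FPKM in diabetic and 3084 to 3582 in control mice. The glucose transporter Slc5a2 fell by 2.99 and 2.0. All 8 injured tubule genes rose in both genotypes, with Lcn2 at 5.92 and 4.26 and Havcr1, kidney injury molecule 1, at 5.53 and 4.37. All 5 fibroblast genes rose in both genotypes, Col1a1 by 2.76 and 2.49, and of 6 macrophage genes 6 rose in WT and 5 in Cfb-/- mice, Lyz2 by 2.76 and 2.73. The summed FPKM of the macrophage genes was 164 to 294 in diabetic and 37.5 to 69.9 in control mice. Of 5 thick ascending limb genes 3 and 2 rose, and of 4 distal convoluted tubule genes none and 1. B and T cell markers rose for 4 of 5 genes in WT and 2 of 5 in Cfb-/- mice. Urothelial (5 of 5) and adipocyte markers (4 of 4 tested) rose in WT mice, and in Cfb-/- mice none of the 5 and 1 of the 4 did. The interaction was called for none of these genes. Summed urothelial FPKM was 0.690 to 45.7 in WT diabetic and 0.279 to 0.610 in WT control mice, so the lowest WT diabetic mouse was near the highest WT control. In Cfb-/- mice the urothelial sum was 1.22 to 3.09 in diabetic and 0.607 to 8.77 in control mice. The part of these changes in the members' fold changes was not tested.

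The genes most like the mean of the 8 members were sought among 11390 genes with a mean of at least 1 FPKM, by the correlation of deviations from group means over the 14 mice. Srgap1, a GTPase-activating protein of the axon-guidance pathway of Slit and Robo, was closest at r = 0.995 (rho = 0.991), and others among the closest were Fam65a (0.964), Adrbk2 (0.960), Ptprs (0.959), Tia1 (0.957), Myom2 (0.955), C1qtnf1 (0.955), Fam160b2 (0.951) and Atp2b4 (0.9504). Srgap1 rose with diabetes by 1.19 in WT (adjusted p = 0.0063) and by 1.49 in Cfb-/- mice (adjusted p = 0.0018). Closest to Nphs1 were Srgap1 (0.977), C1qtnf1 (0.977), Plcd4 (0.958), Sema3g (0.951), a podocyte-enriched semaphorin, and Angptl2 (0.946).

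RefSeq places other genes inside 4 of the 8 loci. Nphs1 overlaps Nphs1os, a noncoding RNA, and a ribosomal pseudogene, Plce1 and Ptpro each overlap 1 gene, and the long Magi2 locus overlaps 10. The library kit keeps strand, but whether the counting used it is not given in the sources used here, so reads of such partners cannot be told apart from those of the 4 genes. Podxl, Synpo, Wt1 and Vegfa overlap no other RefSeq gene.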

How the data were processed

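Kidney RNA of 14 mice was sequenced from stranded poly(A) libraries, and the authors deposited 1 table per mouse with a value in FPKM for each of 21878 genes. The submitters' processing notes name Trimmomatic, HISAT2, Cufflinks, HTSeq and DESeq with GRCm38.p6, without versions or roles. Read counts were not used here, so counting error per gene is unknown. Relative depth, read from the steps of the lowest FPKM values, was 0.837 to 1 across mice.

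Groups were taken from sample titles. The 8 genes and the lists by function were chosen with earlier results of these data known. Genes with at least 0.1 FPKM in 3 or more mice (14912) were fitted with limma 3.58.1 (R 4.3.3, trend) on log2(FPKM + 0.1) with 1 mean per group over all 14 mice, and p-values were adjusted by Benjamini-Hochberg over all tested genes. The design was 2 diabetes comparisons, 2 genotype comparisons and their interaction. The labels do not say whether the mice of a group shared litters or cages. Exact permutation tests enumerated all assignments in Python 3.11.15 with numpy 2.4.6, and rank correlations used scipy 1.17.1. Tested on simulated data with 200 changed genes of 14912, the fit recovered 190 and called 5 unchanged genes. The simulated noise was independent between genes, unlike the shared deviations of these mice. Those counts therefore show that the fit runs correctly and do not give its error rate here.

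The genes named were all 8 members, Cfb, up to 3 called genes per list with the largest change in WT mice, the marker genes at or near 0, the 10 genes most like the members' mean and the 5 most like Nphs1; a few genes that this rule names are not reported here. The summed marker levels, the ratios and the promoter windows were chosen after values were seen. The alternatives were other filters, pseudocounts of 1 and 0.01, median-ratio and quantile scaling, groups compared alone, a replicate block, array weights, each mouse left out, and, chosen after seeing the data, scaling to the FPKM sum without Kap. Promoter sequences and gene positions came from RefSeq tables on GRCm38.p6.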

Additional observations from a re-analysis of the deposited data

How the results depend on the processing

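The number of the 8 genes called with diabetes in WT mice, 4 as deposited, was 2 after median-ratio scaling and 2 with the replicate block, and 2 to 4 with each mouse left out. In Cfb-/- mice the number, 6, was 3 after quantile normalization and 4 to 6 with each mouse left out. In Cfb deletion in control mice, 0 as deposited, array weights called 4 genes, but their estimation did not converge and gave WT control mouse 3 a weight of 14.3. With each mouse left out, 0 of the 8 were called in both genotype comparisons and the interaction, while over all genes 1724 were called for Cfb deletion in control mice without WT control mouse 1 (5743 with array weights) and up to 4 for the interaction (515 with array weights).

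Some differences changed sign. In diabetes in WT mice Magi2 was -0.077 with median-ratio scaling, -0.54 with quantile normalization, where it passed as lower (adjusted p = 0.020), -0.17 with array weights and -0.047 to 0.35 with each mouse left out. Wt1 was -0.020 with array weights, and Vegfa, called lower at -0.72 (adjusted p = 0.0024) with array weights, was 0.0040 with scaling to the sum without Kap and -0.50 to 0.12 with each mouse left out. In Cfb-/- mice Magi2 was -0.18 with quantile normalization. For Cfb deletion in diabetic mice Ptpro was 0.00012 with array weights, 0.027 with scaling without Kap and -0.19 to 0.14 with each mouse left out. For Cfb deletion in control mice Vegfa was -0.37 with array weights and -0.048 to 0.57 with each mouse left out. The Plce1 interaction was -0.32 to 0.074 with each mouse left out. The causes were not tested. Of the members' fold changes with diabetes under every alternative, 237 kept direction and side of the threshold, 25 lost it, 1 gained it and 9 changed sign.

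Mice with the same replicate number showed little shared deviation between groups. Of 19 same-numbered pairs in different groups 3 had r over 0.1 (-0.39 to 0.24), and the own number correlated best in 5 of 38 searches. Whether equal numbers mark a shared litter, cage or batch cannot be told from these correlations. The block called 2 genes in WT and 6 in Cfb-/- mice. FPKM values carry no read numbers, so the precision of Plce1 and Magi2, the lowest members, is known from the spread between mice alone.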
